A study of Mus musculus with 8 samples.

Results

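The genes described here encode the proteasome, the barrel-shaped protease of the cell, with its immunoproteasome subunits, its regulators and its assembly chaperones. They were taken by symbol, as every gene of the count file named Psma, Psmb, Psmc, Psmd, Psme, Psmf or Psmg followed by a digit, and names with the ending -ps were left out, which gave 50 of 54146 genes. Of these, 5 genes (Psmb8, Psmb9, Psmb10, Psme1 and Psme2) form the immunoproteasome subset and 45 are the others. The 4 genes left out as -ps reached at most 52 counts in any library. The samples were macrophages of epididymal white adipose tissue (eWAT) from 4 C57Bl6 mice, which had been fed a high fat diet without limit for 24 weeks to make them obese and had then received 30% less food for 2 weeks, called short-term caloric restriction (stCR). By the study's methods the mice were male and the diet was also high in cholesterol, while whether LDL receptor deficiency was induced in these 4 mice was not given in the sources used here. Leukocytes were sorted as CD11b positive and free of T cell, B cell, neutrophil and eosinophil surface markers, and then by FCGR4, an Fc receptor for IgG, into FCGR4+ and FCGR4- cells. Each mouse gave 1 library of each population (4 against 4), so that diet, restriction and genotype are shared and the comparison lies within each animal. It asks how the 2 macrophage populations differ in the genes of protein degradation.

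The 20S core of the proteasome is a stack of alpha and beta rings, and the proteolytic sites lie on 3 of the beta subunits, Psmb5, Psmb6 and Psmb7. In cells exposed to interferon gamma, and constitutively in many leukocytes, newly built cores take up Psmb8, Psmb9 and Psmb10 in place of Psmb5, Psmb6 and Psmb7, and this immunoproteasome favors peptides that fit MHC class I molecules. The 19S particle, made of ATPases (Psmc) and non-ATPase subunits (Psmd), binds ubiquitylated proteins and feeds them to the core, while PA28 (Psme1 with Psme2) is a ring that opens the core without ATP and is also induced by interferon gamma. Macrophages use these enzymes both for general protein turnover and to prepare peptides of ingested and own proteins for presentation.

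Depth ranged from 35992794 to 66856746 counts, at which 3 counts are 0.0440 to 0.0883 normalized CPM, which are counts scaled to the library size (CPM) with edgeR's TMM method. Fcgr4 itself was at 139 to 236 normalized CPM in FCGR4+ and at 48.5 to 82.9 in FCGR4- libraries (log2 fold change 1.61, SE 0.173, adjusted P = 0.0162 by edgeR), and it was the higher in 4 of 4 mice. The macrophage list (10 genes such as Csf1r, Cd68 and C1qa) summed to 29125 to 54034 normalized CPM in FCGR4+ and to 22247 to 47429 in FCGR4- libraries. Of its 10 genes, 9 had a log2 fold change above 0, while Csf1r was at -0.21. In 4 of 4 mice the FCGR4+ library had the larger sum, and the median log2 fold change of the 10 was 0.49. As higher, edgeR called 0 of the 10, beside 0.0819% of all genes tested, and DESeq2 called 6, beside 1.12%. Of the markers of other cells, 7 lists had a lower sum in the FCGR4+ library of each of 4 mice. The 6 dendritic cell genes summed to 6.56 to 15.2 normalized CPM against 40.1 to 92.2, with 6 of 6 lower. The T and NK cell genes summed to 1.35 to 8.14 against 11.5 to 37.4, with 7 of 7 tested lower, and the neutrophil genes to 110.1 to 520.1 against 319.7 to 2352, with 6 of 6 lower. The mast cell and basophil genes summed to 5.002 to 15.9 against 115 to 1350.0, with 5 of 5 tested lower and Mcpt8 at 0 in every FCGR4+ library, and the fibroblast genes to 130.1 to 266 against 319.8 to 1361, with 6 of 6 lower. The adipocyte genes summed to 4.85 to 8.18 against 5.71 to 10.7, with 4 of 5 lower, and the mesothelial genes to 0.728 to 6.77 against 3.68 to 33.9, with 4 of 4 lower. Of these 7 lists, the ranges of the neutrophil, adipocyte and mesothelial sums overlapped between the populations. The sums of B cell genes (11.98 to 19.2 against 7.30 to 32.7, lower in 3 of 4 mice), eosinophil genes (6.32 to 14.2 against 8.45 to 35.5, lower in 3 of 4 mice, with Prg2 and Epx at 0 in every FCGR4+ library) and endothelial genes (11.5 to 18.4 against 12.6 to 28.2, lower in 2 of 4 mice) overlapped as well. The part of these markers, those of macrophages included, in the proteasome values was not tested, and in bulk libraries fewer cells of a type and less RNA per cell cannot be told apart.

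None of the proteasome genes passed the threshold (adjusted P under 0.1 in a quasi-likelihood fit of edgeR that blocks on mouse, adjusted by Benjamini-Hochberg over 17095 genes). The 5 genes of the immunoproteasome subset were each at a higher value in FCGR4+ macrophages in every mouse. Of the 50 genes, 49 had enough counts to be tested and 0 were called, in a comparison where 1.27% of all genes tested were called (217 genes) and 0.0819% were called as higher (14 genes). edgeR's newer quasi-likelihood method also called 0. DESeq2 with the same paired model is the test named in the study's methods. It called 2 of the 49 as higher, Psme1 and Psmb9, beside 1.12% of all genes, and 0 as lower, beside 4.87%. At an unadjusted P under 0.05 in edgeR, 5 of the 49 were higher (Psme1, Psmb9, Psmb10, Psme2 and Psme2b) beside 3.10% of all genes, and 0 were lower, beside 6.67%. The log2 fold change was above 0 for 40 genes and below 0 for 9, with a median of 0.15, beside a median of -0.00 over all genes tested. With 1 mouse left out, the median of the 49 lay between 0.09 and 0.23. The ratio was above 0 in 4 of 4 mice for 12 of the 49 genes, beside 8.38% of all genes, and below 0 in 4 of 4 mice for 0 of them, beside 10.7%. For none of the 49 did every FCGR4+ library lie above every FCGR4- library, which held for 0.883% of all genes.

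**Figure D1:**
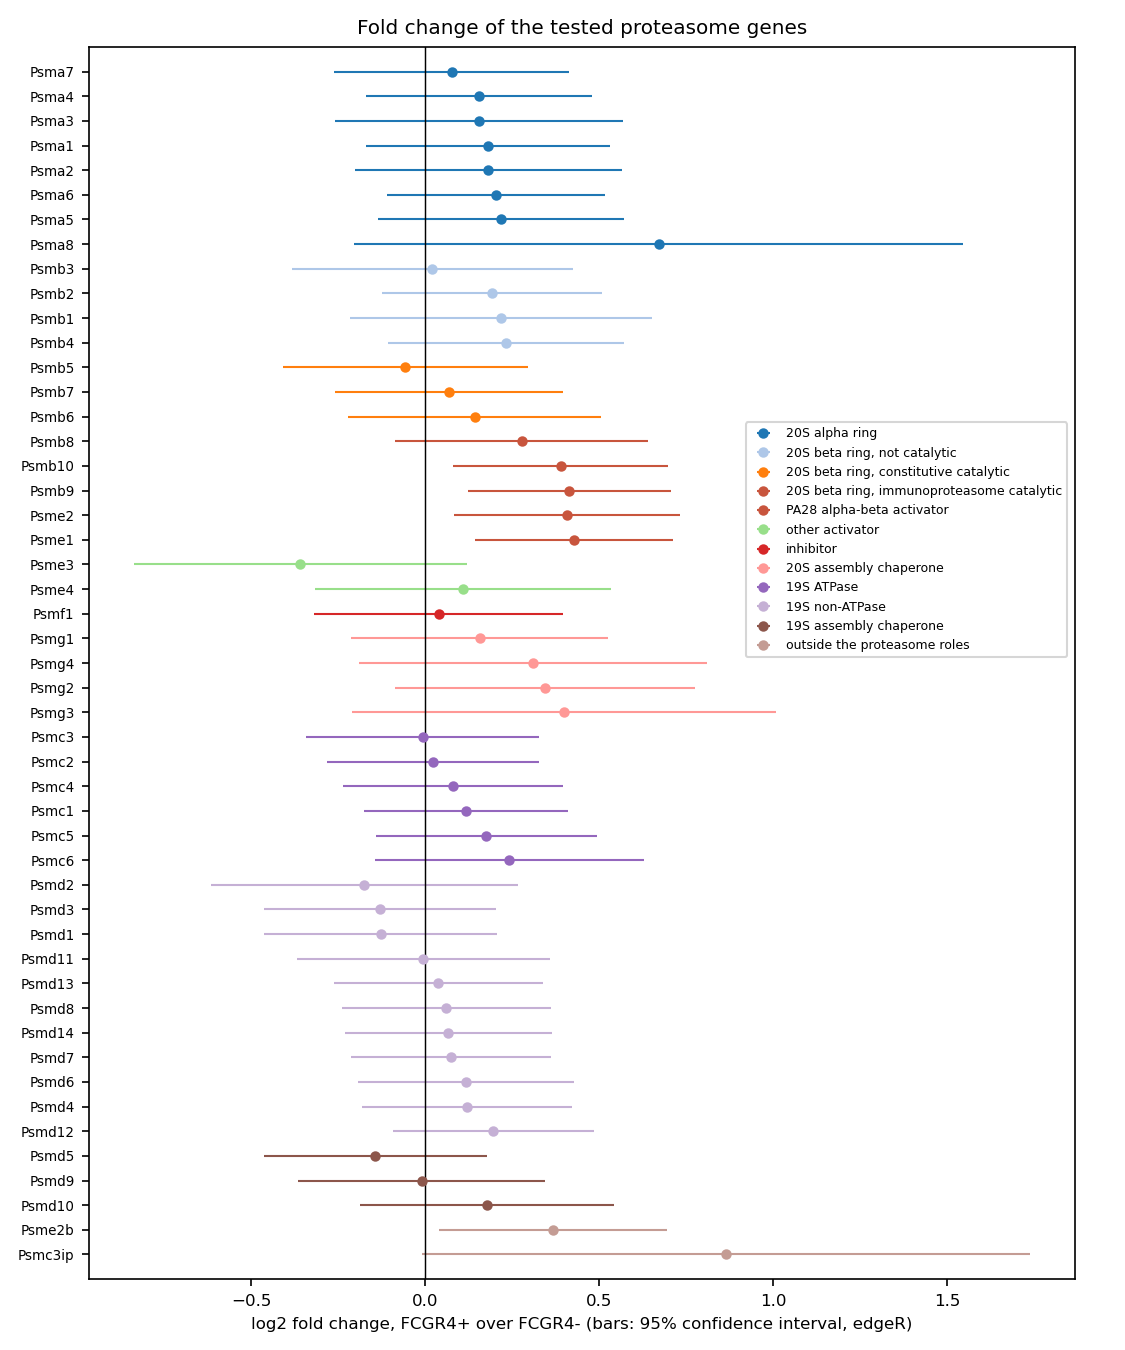
Log2 fold change (x axis, FCGR4+ over FCGR4- macrophages, edgeR fit with mouse as a block) of the 49 tested proteasome genes, colored by role. Points are estimates from 4 mice and bars are 95% confidence intervals. The bars of 5 genes lie wholly above 0 (Psmb9, Psmb10, Psme1, Psme2 and Psme2b) and none lies wholly below 0.

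The catalytic subunits of the immunoproteasome were abundant in both populations. Psmb8 replaces Psmb5 at the chymotrypsin-like site and is encoded in the MHC region (mm10 chromosome 17, 34197721 to 34201454, plus strand). Psmb8 was at 261, 232, 342 and 282 normalized CPM in the FCGR4+ libraries of mice 1 to 4, and at 158, 213, 306 and 262 in their FCGR4- libraries. The FCGR4+ library was the higher of the pair in 4 of 4 mice, by far the most in mouse 1, and the populations overlapped. The mean was 279 ± 46.4 in FCGR4+ and 235 ± 63.9 in FCGR4- macrophages (SD, n = 4), a log2 fold change of 0.28 (SE 0.154, 95% confidence interval -0.09 to 0.64, adjusted P = 0.593 by edgeR). The value rested in good part on 1 animal, since the log2 fold change of Psmb8 was 0.13 without mouse 1.

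Psmb9, which replaces Psmb6, lies 9956 bases from Psmb8 on the minus strand (chromosome 17, 34181988 to 34187764), head to head with the peptide transporter gene Tap1, with which it overlaps by 212 bases. Psmb9 was at 67.1, 52.2, 91.7 and 81.1 normalized CPM in FCGR4+ and at 45.9, 40.5, 68.3 and 65.1 in FCGR4- libraries of mice 1 to 4. Each mouse had the higher value in FCGR4+ cells, with log2 ratios of 0.55, 0.37, 0.42 and 0.32, although the FCGR4+ value of mouse 2 lay below the FCGR4- values of mice 3 and 4. The means of Psmb9 were 73.0 ± 17.1 and 55.0 ± 13.8 (SD, n = 4), and the log2 fold change was 0.41 (SE 0.124, interval 0.12 to 0.71), 1.33-fold. The adjusted P of Psmb9 was 0.303 with edgeR and 0.0507 by DESeq2. Of the exon bases of Psmb9, 5.79% also lie in exons of Tap1 on the other strand, and read pairs there were left uncounted.

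Psmb10, which replaces Psmb7 at the trypsin-like site, lies apart from the others on chromosome 8 (minus strand, 105935735 to 105938444). Psmb10 was at 99.4, 83.1, 139 and 138 normalized CPM in FCGR4+ and at 73.7, 72.3, 92.0 and 110.3 in FCGR4- libraries. Again the FCGR4+ library was the higher in 4 of 4 mice, and the populations overlapped. The log2 fold change of Psmb10 was 0.39 (SE 0.132, interval 0.08 to 0.70, adjusted P = 0.376 by edgeR, 0.102 by DESeq2), with means of 115 ± 28.2 and 87.1 ± 17.9 (SD, n = 4).

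The PA28 activator showed the same order within mice. Psme1 and Psme2, its alpha and beta subunits, are neighbors on chromosome 14 with 5911 bases between them, Psme1 on the plus strand (55578123 to 55581529) and Psme2 on the minus strand (55587441 to 55591113). Psme1 was at 143, 113, 228 and 221 normalized CPM in FCGR4+ and at 103, 87.0, 174 and 159 in FCGR4- libraries, with nearly equal log2 ratios of 0.47, 0.38, 0.39 and 0.47 in mice 1 to 4. Its means were 176 ± 57.2 and 131 ± 42.4 (SD, n = 4), a log2 fold change of 0.43 (SE 0.121, interval 0.14 to 0.71), 1.35-fold (interval 1.10 to 1.64). Its adjusted P was 0.263 with edgeR, the lowest of the 49 genes, and 0.0185 by DESeq2. Without any 1 mouse the log2 fold change of Psme1 stayed between 0.41 and 0.48 (adjusted P from 0.360 to 0.719 by edgeR).

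Psme2 was at 162, 126, 286 and 281 normalized CPM in FCGR4+ and at 123, 116, 198 and 188 in FCGR4- libraries. The FCGR4+ value was the higher in 4 of 4 mice, least in mouse 2, with a log2 fold change of 0.41 (SE 0.138, interval 0.08 to 0.73, adjusted P = 0.379 by edgeR). Of the transcript sequence of Psme2, 28.3% occurs as identical 50-base words in Psme2b, a gene on chromosome 11 whose own sequence is shared with Psme2 to 68.7%. Since read pairs mapping to both were counted at each, the values of Psme2b (log2 fold change 0.37, interval 0.04 to 0.69, adjusted P = 0.455 by edgeR) cannot be told apart from those of Psme2.

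**Figure D2:**
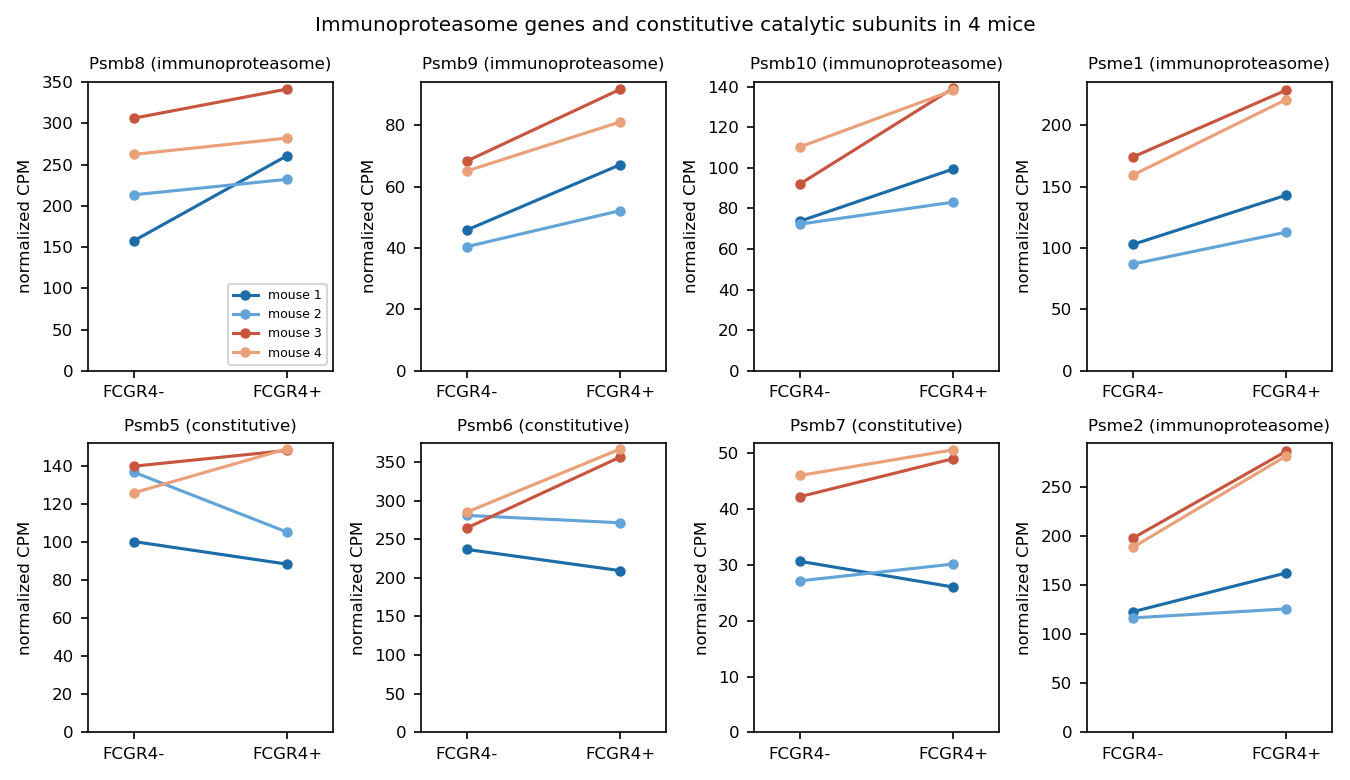
Normalized CPM (y axis, starting at 0) of the 5 immunoproteasome genes and of the constitutive catalytic subunits Psmb5, Psmb6 and Psmb7 in FCGR4- and FCGR4+ macrophages, with a line for each of 4 mice. The lines of the 5 immunoproteasome genes go up from FCGR4- to FCGR4+ in every mouse, while those of Psmb5, Psmb6 and Psmb7 go down in mouse 1.

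Taken as a sum, the 5 genes reached 732, 606, 1087 and 1003 normalized CPM in FCGR4+ and 503, 529.6, 838 and 785 in FCGR4- libraries of mice 1 to 4. They made up 15.7%, 13.5%, 16.4% and 15.005% of the summed counts of the 48 genes with a role in the proteasome in FCGR4+ libraries, and 11.3%, 11.7%, 14.7% and 14.3% in FCGR4- libraries. The share was thus 15.1% ± 1.26 against 12.99% ± 1.77 (SD, n = 4), higher in 4 of 4 mice, and the populations overlapped. The median log2 fold change of the subset was 0.41, and with each mouse left out in turn it stayed between 0.35 and 0.48. By mouse, the median log2 ratio of the 5 genes was 0.47, 0.20, 0.42 and 0.32. The 42 other tested genes with a proteasome role had medians of -0.01, 0.02, 0.21 and 0.27 in the same mice. The gap between the 2 sets was therefore widest in mouse 1 and small in mouse 4.

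**Figure D3:**
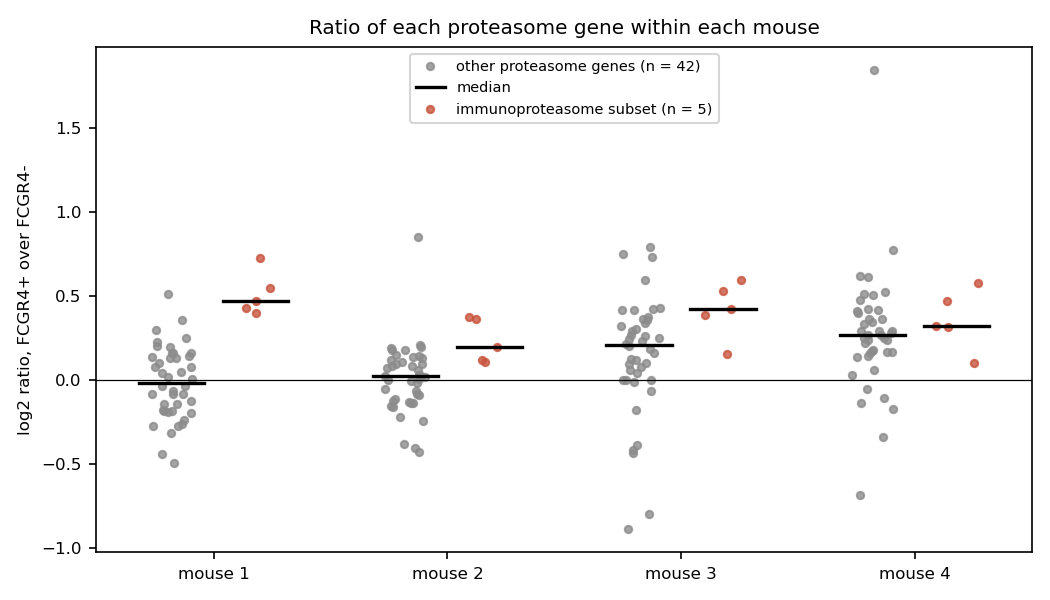
Log2 ratio of FCGR4+ over FCGR4- normalized CPM (y axis, prior count of 2) of each tested proteasome gene within each of 4 mice (x axis), for the 5 immunoproteasome genes and the 42 others with a proteasome role. Black lines are medians. The 5 immunoproteasome genes lie above 0 in every mouse, while the median of the others goes from -0.01 in mouse 1 to 0.27 in mouse 4.

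The subunits that the immunoproteasome replaces had log2 fold changes of -0.06 to 0.14. Psmb5 (chymotrypsin-like) was at 88.4, 105, 148 and 149 normalized CPM in FCGR4+ and at 100.2, 137, 139.8 and 126 in FCGR4- libraries, lower in FCGR4+ cells of mice 1 and 2 and higher in those of mice 3 and 4. Its log2 fold change was -0.06 (SE 0.1495, interval -0.41 to 0.29, adjusted P = 0.904 by edgeR). Of its sequence, 54.1% is shared with other genes, most with the processed copy Gm3375 (46.8%). Psmb6 (caspase-like) had FCGR4+ values of 209, 271, 356 and 367 and FCGR4- values of 237, 281, 265 and 285 normalized CPM, split between the mice in the same way, and a log2 fold change of 0.14 (interval -0.22 to 0.50, adjusted P = 0.755 by edgeR). Psmb7 (trypsin-like) ranged from 26.0 to 50.6 in FCGR4+ and from 27.1 to 46.0 in FCGR4- libraries, with a log2 fold change of 0.07 (interval -0.26 to 0.39, adjusted P = 0.875 by edgeR). As ratios of FCGR4+ to FCGR4-, these intervals run from 0.753 to 1.23 for Psmb5, from 0.858 to 1.42 for Psmb6 and from 0.836 to 1.31 for Psmb7. With 1 mouse left out, the log2 fold change lay between -0.16 (without mouse 4) and 0.0801 (without mouse 2) for Psmb5. It lay between 0.0335 (without mouse 3) and 0.25 (without mouse 1) for Psmb6, and between 0.0066 (without mouse 3) and 0.17 (without mouse 1) for Psmb7.

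The ratio of each immunoproteasome subunit to the one it replaces was taken within each library, so that the size of the library drops out. The log2 ratio of Psmb8 over Psmb5 was higher in FCGR4+ than in FCGR4- cells by 0.91, 0.50 and 0.07 in mice 1 to 3, and differed by -0.14 in mouse 4. That of Psmb9 over Psmb6 differed by 0.73, 0.42, -0.00 and -0.05. Both thus differed in mice 1 and 2 and hardly in mice 3 and 4. Only Psmb10 over Psmb7, of these 3 pairs, had 4 of 4 mice on the higher side, by 0.67, 0.05, 0.38 and 0.19. The means of these differences were 0.34 ± 0.464 for the first pair, 0.27 ± 0.368 for the second and 0.32 ± 0.267 for the third (SD, n = 4), so for the first 2 pairs the spread between mice exceeded the mean.

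As levels per kb of the merged exons of each gene, the log2 ratio over 8 libraries was -0.57 ± 0.302 for Psmb8 over Psmb5, -3.14 ± 0.348 for Psmb9 over Psmb6, and 2.43 ± 0.241 for Psmb10 over Psmb7 (SD, n = 8 libraries of 4 mice). Per kb of the principal transcript, a length chosen after the values had been seen, they were 0.18, -2.94 and 1.25. By both lengths Psmb9 was the scarcer of its pair and Psmb10 the more abundant, whereas the order of Psmb8 and Psmb5 turned with the length used. Exon bases shared with other genes, where read pairs were unassigned, were 12.1% for Psmb5, 11.8% for Psmb7, 6.8% for Psmb8 and 5.79% for Psmb9. They were 0 for Psmb6 and Psmb10, and their part in these ratios was not tested.

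The remaining subunits of the 20S core were carried at high levels. The 14 genes of the constitutive core (Psma1 to Psma7 of the alpha ring, which gates entry, and Psmb1 to Psmb7) had a median log2 fold change of 0.17, from -0.06 for Psmb5 to 0.23 for Psmb4, and 0 passed the threshold in edgeR, in DESeq2 or at an unadjusted P under 0.05. By mouse, the median ratio of these 14 was -0.11, -0.02, 0.32 and 0.36. Psmb4, a structural subunit of the beta ring, had ratios of -0.08, 0.20, 0.29 and 0.51 in mice 1 to 4. It was at 53.3, 65.8, 108 and 119.9 normalized CPM in FCGR4+ and at 56.4, 57.3, 88.1 and 83.9 in FCGR4- libraries (log2 fold change 0.23, interval -0.11 to 0.57, adjusted P = 0.622 by edgeR). Per kb of principal transcript, the core genes lay between 32.5 (Psmb7) and 356 (Psmb6) normalized CPM per kb as the mean of both populations, with a median of 139.5. Among the immunoproteasome subunits, Psmb9 had 47.3, Psmb10 77.0 and Psmb8 158 normalized CPM per kb, within the range of the core.

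**Figure D4:**
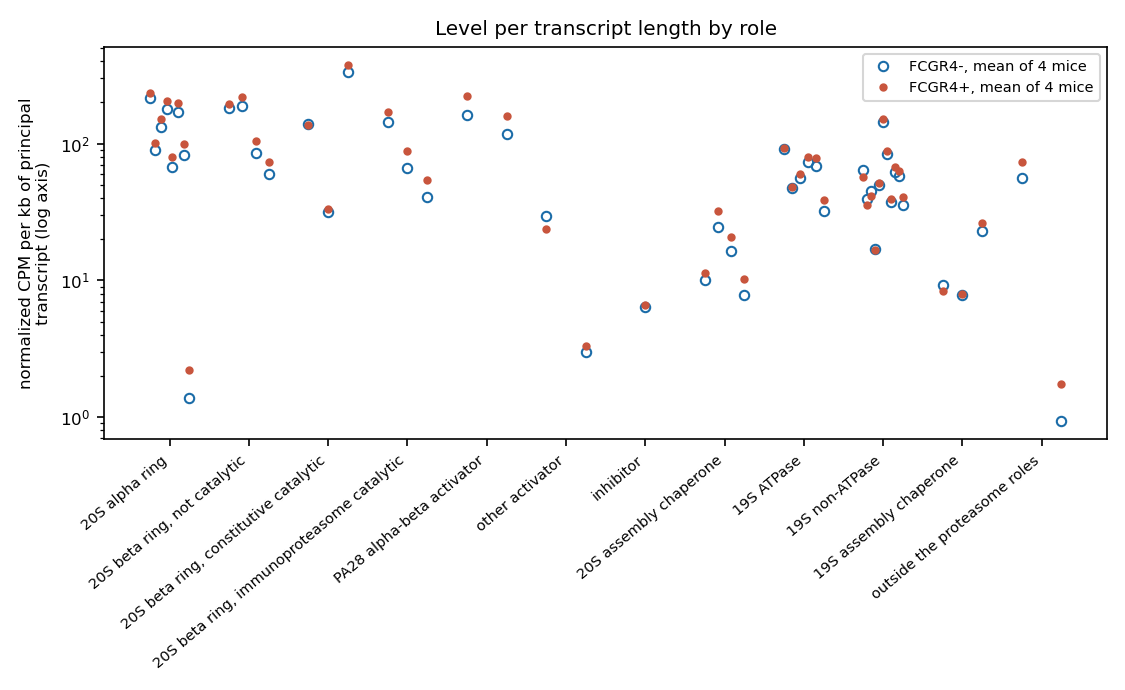
Mean normalized CPM per kb of principal transcript (y axis, log scale, n = 4 mice) of each tested gene by role, with open circles for FCGR4- and filled circles for FCGR4+ macrophages. Core and PA28 genes lie at the top, among them Psmb8 and Psme2, and Psma8, Psme4, Psmf1 and Psmc3ip near the bottom.

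Psma8 is a testis-type alpha subunit that takes the place of Psma7 in germ cells. It was at 7.44, 2.14, 1.34 and 3.94 normalized CPM in FCGR4+ and at 5.19, 1.88, 1.23 and 1.07 in FCGR4- libraries. Within mice the FCGR4+ library had the higher value in 4 of 4, most in mouse 4, at a level far below Psma7 (215 ± 77.6 and 197 ± 42.0, SD, n = 4), and its log2 fold change of 0.67 had a wide interval (-0.21 to 1.55, adjusted P = 0.590 by edgeR). Without mouse 4 it was 0.28. Psmb11, the catalytic subunit of thymic epithelium, had 1 count in 1 of 4 FCGR4+ libraries and at most 3 in the FCGR4- libraries, and did not pass the filter on low counts.

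The 19S particle had estimates close to 0. Its 17 genes (the ATPases Psmc1 to Psmc6 and 11 non-ATPase subunits) had a median log2 fold change of 0.07, 12 above 0 and 5 below, and 0 passed the threshold in edgeR or DESeq2 or an unadjusted P under 0.05. Psmc6, an ATPase of the base ring, had the highest value of the 17 at 0.24 (interval -0.14 to 0.63, adjusted P = 0.645 by edgeR). The lowest were 3 non-ATPase subunits, Psmd2 and Psmd1, the large scaffolds of the base that hold ubiquitin receptors, and Psmd3 of the lid. Psmd2 was at 177, 207, 126 and 169.6 normalized CPM in FCGR4+ and at 151, 203, 219 and 191 in FCGR4- libraries, which is higher in 2 mice and lower in mice 3 and 4 (log2 fold change -0.18, interval -0.62 to 0.27, adjusted P = 0.751 by edgeR). Without mouse 3 its value was 0.02. Psmd3 and Psmd1 had log2 fold changes of -0.13 each, with intervals of -0.46 to 0.20 and -0.46 to 0.21 (adjusted P = 0.755 and 0.758 by edgeR), and lay between -0.19 and -0.04 and between -0.23 and -0.06 with 1 mouse left out, both nearest to 0 without mouse 3. The chaperones of 19S assembly, Psmd5, Psmd9 and Psmd10, were at -0.14, -0.01 and 0.18, and Psmd5 was at -0.0788 without mouse 4.

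Of the other activators, Psme3 (PA28 gamma, a nuclear form of the ring) had the lowest log2 fold change of the 49 genes. Psme3 was at 72.9, 80.4, 41.2 and 56.9 normalized CPM in FCGR4+ and at 66.5, 80.5, 76.1 and 91.3 in FCGR4- libraries. The ratio was near 0 in mice 1 and 2 (0.13 and -0.00) and well below 0 in mice 3 and 4 (-0.89 and -0.68). The means were 62.8 ± 17.4 and 78.6 ± 10.3 (SD, n = 4), with a log2 fold change of -0.36 (SE 0.203, interval -0.84 to 0.12, adjusted P = 0.595 by edgeR), and it was -0.19 without mouse 3 and -0.53 without mouse 1. Psme3 thus stood opposite to Psme1 and Psme2 in mice 3 and 4, but the difference between these genes was not tested. Psme4 (PA200), an activator known from acetylated histone turnover, was at 13.4 to 26.4 normalized CPM in FCGR4+ and at 17.7 to 21.4 in FCGR4- libraries (log2 fold change 0.11, interval -0.32 to 0.53), with 0.0021 without mouse 4 and 0.31 without mouse 2. Psmf1 (PI31), first described as an inhibitor of the core, was at 21.6 to 29.0 and at 23.1 to 25.2 (log2 fold change 0.04, interval -0.32 to 0.40, adjusted P = 0.943 by edgeR). Its value was -0.07 without mouse 3 and 0.11 without mouse 1.

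The chaperones that build the alpha ring, Psmg1 to Psmg4, were expressed at lower levels, from 4.53 (Psmg3) to 24.8 (Psmg2) normalized CPM over all libraries. Their log2 fold changes were above 0 but none passed the test, with 0.16 for Psmg1 (interval -0.21 to 0.53), 0.34 for Psmg2 (-0.09 to 0.78), 0.40 for Psmg3 (-0.21 to 1.01) and 0.31 for Psmg4 (-0.19 to 0.81). With 1 mouse left out, the value for Psmg2 lay between 0.20 (without mouse 4) and 0.53 (without mouse 2). That for Psmg3 lay between 0.26 (without mouse 3) and 0.67 (without mouse 1), and that for Psmg4 between 0.13 (without mouse 3) and 0.49 (without mouse 2). Psmg1 was the one of these 4 with a higher value in every FCGR4+ library of a pair, at 10.4, 10.5, 13.05 and 13.3 normalized CPM against 9.68, 9.80, 10.996 and 11.8. Psmg4 was higher in mice 3 and 4, at 24.6 and 22.4 against 14.2 and 14.6, and not in mice 1 and 2, at 12.6 and 11.2 against 12.9 and 12.5.

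Outside the proteasome proper, the rule on symbols also took Psmc3ip, named for an interaction with Psmc3 and known from meiotic recombination, and Psme2b. Psmc3ip had the highest log2 fold change of the 49 genes, 0.86 (interval -0.01 to 1.74, adjusted P = 0.513 by edgeR), at a low level of 1.46 to 3.67 normalized CPM in FCGR4+ and 0.647 to 1.48 in FCGR4- libraries. Of its exon bases, 21.2% overlap Mlx. Among the 40 genes outside the subset that have a proteasome role and a mean of at least 10 normalized CPM, every confidence interval lay within -1 to 1 on the log2 scale, from -0.84 to 0.81, so that a 2-fold difference of any of them in either direction lies outside its interval.

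A split between animals ran through these genes and is given because the populations are compared on top of it. The sample descriptions carry one animal ID prefix for mice 1 and 2 and another for mice 3 and 4, whose meaning the labels do not state, and the pattern was chosen after the values had been seen. The summed level of all 50 genes was 4718 and 4542 normalized CPM in FCGR4+ and 4499.6 and 4577 in FCGR4- libraries of mice 1 and 2. It was 6703 and 6767 in FCGR4+ and 5758 and 5540.4 in FCGR4- libraries of mice 3 and 4, so the ranges of the 2 pairs of mice did not overlap. For 27 of the 49 tested genes (55.1%) every library of mice 3 and 4 lay above every library of mice 1 and 2, which held for 8.49% of all genes tested. With library size alone in place of TMM the counts were 28 of 49, beside 9.93% of all genes. The 27 included Psmb8, Psme1 and Psme2 and most of the core. In the opposite direction there was 1 gene, Psmd5, beside 7.92% of all genes. The median difference on the log2 scale was 0.40 for the 49 genes and -0.07 for all genes (pseudocount 0.1 normalized CPM).

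The comparison of populations was also made within each of these pairs of mice. In mice 1 and 2 alone the median log2 fold change of the 49 genes was 0.01, and in mice 3 and 4 alone it was 0.26, with 0 genes past the threshold in either fit by edgeR. The immunoproteasome genes kept a log2 fold change above 0 in both pairs. Of the 42 other genes, 21, 24, 34 and 36 had a ratio above 0 in mice 1 to 4. The share of counts from mitochondrial genes was lower in FCGR4+ libraries of mice 1 and 2, at 8.31% and 4.35% against 9.88% and 6.43%. In mice 3 and 4 the share was higher in FCGR4+ libraries, at 7.87% and 6.67% against 5.21% and 4.13%. Its part in the result was not tested. The difference between the pairs of mice was not tested either.

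**Figure D5:**
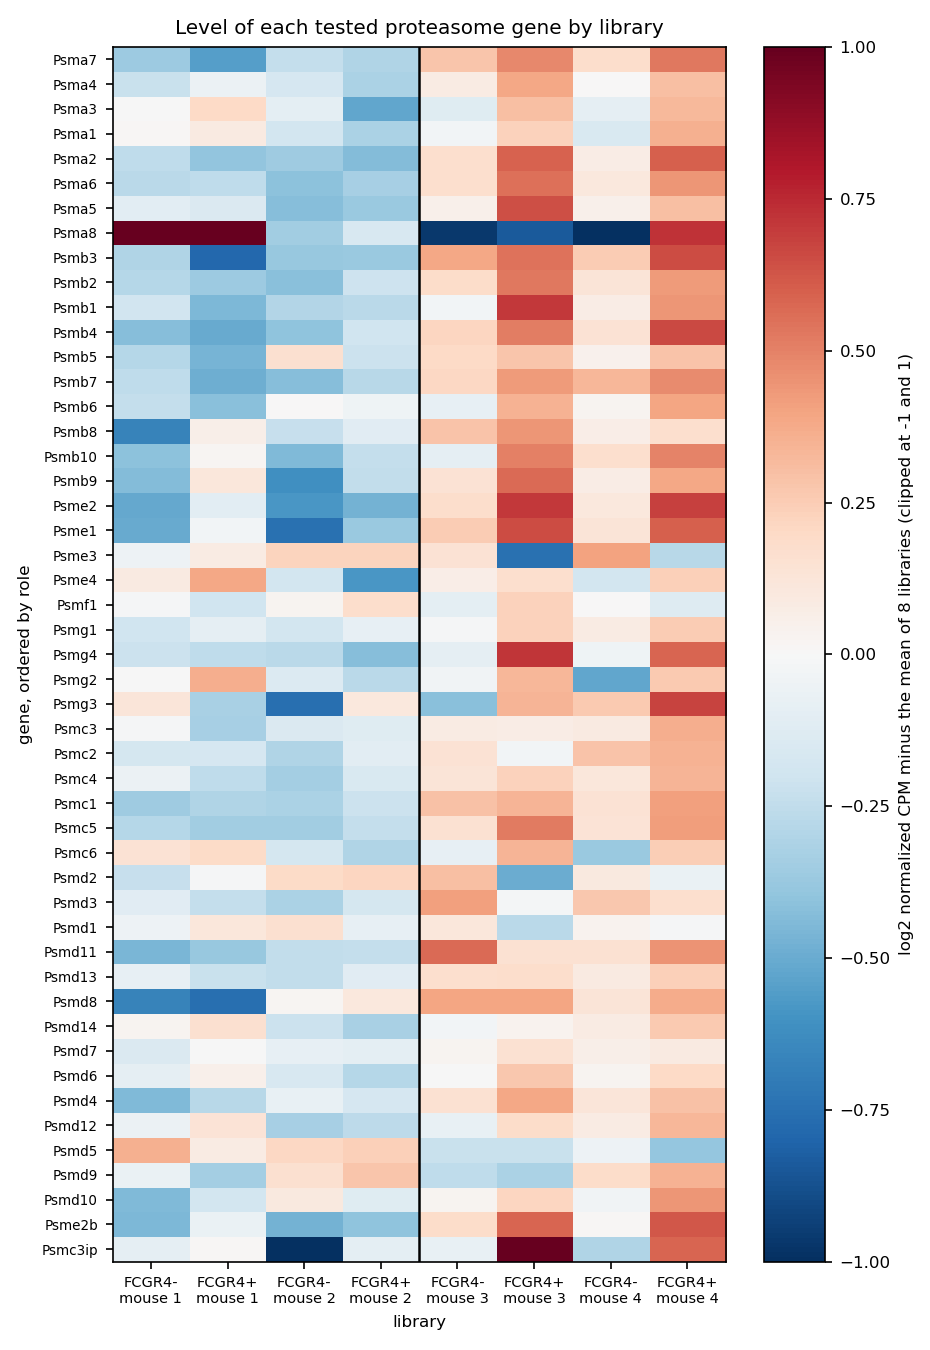
Log2 normalized CPM of each of the 49 tested genes (y axis, ordered by role) in each of 8 libraries (x axis, by mouse), as the difference from the gene's mean over the libraries, clipped at -1 and 1. The black line divides mice 1 and 2 from mice 3 and 4, which carry different ID prefixes. Most genes are below their mean (blue) on its left and above it (red) on its right, and Psmd5 is the reverse.

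Genes that work with the proteasome but carry other names were also examined. Of 27 partners (ubiquitin genes, shuttle receptors, deubiquitinases, the maturation protein and the factors that drive proteasome genes), 26 were analysed and 0 passed the threshold in edgeR. DESeq2 called 1 as higher, beside 1.12% of all genes. At an unadjusted P under 0.05 in edgeR 2 were higher, beside 3.10% of all genes, and the median log2 fold change was 0.04. The gene called by DESeq2 was Ubqln2, a shuttle that carries ubiquitylated proteins to the proteasome, at 20.5, 10.8, 21.4 and 19.4 normalized CPM in FCGR4+ and at 17.4, 8.21, 8.27 and 6.90 in FCGR4- libraries (log2 fold change 0.88, interval 0.26 to 1.49, adjusted P = 0.303 by edgeR and 0.0475 by DESeq2). Pomp, which matures the newly built core and is needed early for the immunoproteasome, was at 93.9, 96.1, 173 and 168 against 92.6, 82.5, 111 and 123 normalized CPM, higher in 4 of 4 mice (log2 fold change 0.33, interval -0.02 to 0.68, adjusted P = 0.524 by edgeR; 0.22 without mouse 3). Nfe2l1, the factor that raises proteasome genes when the protease is inhibited, was at 62.2, 60.7, 33.1 and 37.2 against 57.0, 63.8, 58.6 and 62.7, lower in FCGR4+ cells of mice 3 and 4 and near equal in mice 1 and 2 (log2 fold change -0.38, interval -0.84 to 0.09, adjusted P = 0.569 by edgeR; -0.24 without mouse 3).

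Of 12 genes of the interferon gamma pathway, which induces the immunoproteasome subset, 0 passed the threshold in edgeR. Their median log2 fold change was -0.15, with 9 genes below 0 and 3 above. Values are given here for Irf1, Nlrc5 and Ifng. Irf1, a transcription factor that acts on Psmb9 and Tap1, differed in direction between the mice, at 129.7 and 50.5 against 78.1 and 39.3 in mice 1 and 2 and at 55.2 and 62.4 against 95.8 and 106 in mice 3 and 4 (log2 fold change -0.12, interval -0.79 to 0.56, adjusted P = 0.900 by edgeR). Nlrc5, the activator of MHC class I genes, had a log2 fold change of 0.08 (interval -0.68 to 0.83, adjusted P = 0.945 by edgeR). Its log2 ratio was 1.34 in mouse 1 and -0.55, -0.34 and -0.09 in mice 2, 3 and 4. Ifng itself was at no more than 0.677 normalized CPM in any library. At this low level it was the lower in the FCGR4+ library of every mouse (log2 fold change -2.80, interval -5.47 to -0.13, adjusted P = 0.488 by edgeR).

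Of 9 genes for loading peptides on MHC class I, 0 passed the threshold in edgeR, with a median log2 fold change of 0.11. At an unadjusted P under 0.05 in edgeR 1 was higher, beside 3.10% of all genes. The same 1 was called by DESeq2 as higher, beside 1.12% of all genes. This was B2m, the light chain of MHC class I, at 1754, 2153, 2735 and 2198 normalized CPM in FCGR4+ and at 1245, 1961, 1906 and 1507 in FCGR4- libraries, higher in 4 of 4 mice (log2 fold change 0.42, SE 0.132, interval 0.11 to 0.73, adjusted P = 0.322 by edgeR and 0.0523 by DESeq2). Tap1, which shares its start region with Psmb9, was at 135 and 80.7 normalized CPM against 69.4 and 59.9 in mice 1 and 2, while its log2 ratios were -0.34 and -0.11 in mice 3 and 4, where Psmb9 had ratios above 0, although the difference between these neighbors was not tested. The log2 fold change was 0.23 for Tap1 (interval -0.30 to 0.76) and -0.10 for Tap2 (interval -0.57 to 0.37), the other subunit of the transporter. With 1 mouse left out, the value lay between -0.0068 and 0.41 for Tap1 and between -0.32 and 0.0396 for Tap2.

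The start regions of these genes were searched for letters bound by the factors above, in the 250 bases before each RefSeq gene start (build GRCm38.p6), which were at hand for 42 of the 50 genes (45 windows). GAAANNGAA, the core of an IRF site, was found in 3 of the 45 windows on either strand (6.67%, beside 7.13% of all 32851 windows of this length) and in 0 of the 6 windows of the immunoproteasome genes. TGACNNNGC, the antioxidant element that Nfe2l1 and Nfe2l2 bind, was found in 5 of 45 on either strand (11.1%, beside 10.2% of all windows), and in 0 of the 6, and CCAAT of NF-Y in 15 of 45 (33.3%, beside 33.8%). These shares were near the background. The antioxidant letters of 2 constitutive catalytic subunits are shown because these are the subunits that the immunoproteasome replaces, with the match in capitals and the flanks in lower case, 5' to 3' on the strand of the gene.
Psmb5, chr14:54618024-54618052, minus strand, 47 to 39 bases before the start: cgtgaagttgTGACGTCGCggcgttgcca
Psmb6, chr11:70525338-70525356, plus strand, 9 bases up to the start: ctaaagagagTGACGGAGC
A match is a run of letters and not a bound site, and a window without one says only that these letters are not in it.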

How the data were processed

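Bulk RNA-Seq of 8 libraries (FCGR4+ and FCGR4- eWAT macrophages of 4 mice) was analysed from the deposited counts, which the authors made by mapping to mm10 with STAR and counting read pairs per gene with featureCounts 1.6.3 on GENCODE M18 annotation. By the file header, a pair with several mapping places was counted at every one, strand was not used, and pairs on exons of overlapping genes were unassigned. Other per-sample columns left out numbered 0. Total counts lay between 35992794 and 66856746, so 3 counts equal 0.0440 to 0.0883 normalized CPM.

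Kept were the 17095 genes that reached 10 counts in 4 or more of 8 libraries. They were scaled by TMM and tested with edgeR 4.0.16 (R 4.3.3), quasi-likelihood test, model of mouse and population, Benjamini-Hochberg adjustment, threshold 0.1. Standard errors are the log2 fold change over the square root of F, and ratios by mouse use a prior count of 2. The same-numbered libraries come from the same mouse. Their deviations from the population means correlated at 0.291 to 0.428 across genes (median over different mice -0.0615). Libraries of a population differed by more than sampling noise (chi-square per degree of freedom at least 86.8). Fits were tested on simulated data.

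The members, gene lists, roles and tests were chosen with earlier results of these data known. Genes named are the immunoproteasome subset, its constitutive counterparts, the 5 highest and 5 lowest log2 fold changes, genes called by edgeR or DESeq2, the other activators, inhibitor and chaperones, genes below the filter, and Irf1, Nlrc5, Tap1, Tap2, Pomp and Nfe2l1. Psmb4, Psmc6, Psma7, Psmd9, Psmd10, Psme2b, B2m, Ubqln2, Ifng and the genes of motif matches were named after their values were seen. Values for 1 listed gene and 1 motif are not given here. The alternatives tried were no replicate block, DESeq2 1.42.0, edgeR's newer quasi-likelihood method, RLE size factors, library size alone, no filter or at least 10 counts in every library, the stricter threshold of 0.05, fits without 1 mouse, fits within an ID prefix, and other gene lengths. Shared sequence was counted in 50-base words over GENCODE transcripts of a later release of the same build. Promoter sequences are from RefSeq, GRCm38.p6.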

Additional observations from a re-analysis of the deposited data

Results flagged for a closer look

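Of 65 groups of 4 values examined for a value that stands apart by Dixon's test, 1 was past the limit, where chance gives about 1 in 20, or 3.25. It was the log2 ratio of Psmb8 by mouse, with 0.726 in mouse 1 against 0.121, 0.157 and 0.105 in mice 2, 3 and 4, and a gap of 0.915 of the whole range.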

How the results depend on the processing

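The number of genes past the threshold was 217 in the fit reported, 48 with no replicate block (population alone, not paired by mouse), 1024 with DESeq2, 629 with edgeR's newer quasi-likelihood method, 1054 with no filter on low counts, 115 in mice 1 and 2 alone, 72 in mice 3 and 4 alone, 76 at a threshold of 0.05, and 78 to 162 with a mouse left out. Of the proteasome genes 2 passed with DESeq2, both of the immunoproteasome subset, and 0 in the fit reported and in every other alternative, so the block changed no call on them. Their median log2 fold change was 0.15, 0.0113 in mice 1 and 2 alone, and was 0.09 to 0.23 with a mouse left out. No filter moved the median of all genes to -0.16. Library size alone moved it to -0.09, that of the proteasome genes to 0.07 and that of the subset to 0.32.

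Directions turned as follows, and the cause was not tested. In mice 1 and 2 alone, the log2 fold change was -0.11 for Psmb6, -0.0437 for Psmb7, 0.063 for Psme3, 0.13 for Psmd2, 0.0065 for Psmd3, -0.048 for Psme4, -0.0211 for Psmf1, -0.10 for Psmg4, 0.55 for Irf1, 0.25 for Tap2 and 0.0275 for Nfe2l1. In mice 3 and 4 alone it was 0.14 for Psmb5, -0.24 for Nlrc5 and -0.24 for Tap1. With a mouse left out in turn the ranges that crossed 0 were -0.16 to 0.0801 for Psmb5, -0.31 to 0.0171 for Psmd2, -0.07 to 0.11 for Psmf1, -0.40 to 0.11 for Irf1, -0.33 to 0.33 for Nlrc5, -0.0068 to 0.41 for Tap1 and -0.32 to 0.0396 for Tap2. With library size alone the values below 0 were -0.0219 for Psmb7, -0.0517 for Psmf1 and -0.0158 for Nlrc5, each above the median of all genes under that scaling. The 5 immunoproteasome genes kept their direction in every alternative. Without gene length, the log2 ratios of the catalytic pairs were 1.04, -2.18 and 1.43. With 4 mice, the median standard error of the proteasome genes was 0.143 on the log2 scale, which limits how small a difference can be told from 0.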
